A study of Mus musculus with 15 samples.

Results

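The clustered protocadherin genes of the mouse were taken as all protein-coding genes on chromosome 18 of mm10 whose symbol in GENCODE release M21 starts with Pcdha, Pcdhb or Pcdhg. This gave 57 genes of 21670 protein-coding genes on chromosomes 1 to 19 and X, namely 14 of the alpha, 22 of the beta and 21 of the gamma cluster. They lie on the plus strand in that order. The symbol Pcdha11 is carried by 2 genes, which are named here by their order as the upstream copy (first exon at chr18:37005203-37007701) and the downstream copy (chr18:37010752-37013251). No member carries the symbol Pcdha10, and the word copy refers here to the shared symbol alone. Each gene was described by a window, which is the first exon of the transcript with the longest coding sequence plus 1 kb upstream.

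Clustered protocadherins are cell-surface adhesion proteins that give single neurons an identity, since each neuron switches on a small set of them. Every variable first exon has its own promoter and encodes the whole extracellular part, the membrane span and some of the cytoplasmic part. In the alpha and gamma clusters it is spliced to constant exons, which encode the shared rest of the cytoplasmic part, whereas beta genes have none. The C-type exons at the end of the alpha and gamma clusters are used more constitutively. The choice of a promoter in neurons involves CTCF, cohesin and DNA methylation set early in development by Dnmt3b, so that the state of these exons in stem cells has been of interest.

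The DNA of all libraries was isolated from the mouse embryonic stem cell line E14TG2a, grown on gelatin with LIF and fetal bovine serum. In hmTOP-seq, the enzyme BGT puts an azide-carrying glucose on 5hmC, an oligonucleotide is clicked to it, and a polymerase primed there starts a read at or near the labeled cytosine. This was done with 500, 50 and 5 ng of DNA, each with 2 technical replicates and with 2 control libraries without BGT. In uTOP-seq, unmodified CGs (uCGs) were read in 3 replicates from 300 ng. Since the libraries share a source of cells, p-values measure only the spread between libraries, which may be technical.

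Depth was 14884939 to 32502791 reads in the labeled 5hmC libraries and 20120568 to 28412885 in the uCG libraries, against 3409 to 10072 reads in the controls. Levels are given as reads per CG, both strands summed, which is a coverage and not a percentage of modified molecules. The mean over all 21353092 CGs was 1.52 and 1.49 reads per CG in the 500-ng libraries, and 1.33, 1.08 and 0.94 in the uCG libraries. The 6182 CGs in the 57 windows held 14899 and 14409 reads of the 500-ng libraries. The 6 control libraries together had 11 reads there, 5 and 6 in those of 500 ng and 0 in those of 50 and 5 ng. With DNA there is no transcript level to check the cell type by, and the uCG reads of 6 pluripotency genes differed widely. The window of Pou5f1, the gene of a core pluripotency factor, had 6.70 uCG reads per CG, more than 99.9% of all windows. That of Nanog, another such factor, had 5.30. Zfp42 had 3.14, Esrrb 3.02 and Sox2 2.69, while Klf4 had 0.98, more than only 21.5% of all windows.

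The windows of clustered protocadherins carried more 5hmC reads than most gene starts. At 500 ng the median window had 2.20 reads per CG (range 0.89 to 7.88), compared with 0.47 over the 21609 windows with a CG. Among the 1441 genes with a first exon of at least 1 kb, the members included, the median was 0.84. The first exons of the members had 2346 to 8695 bp (median 2611), so this set was not matched to them in length. The median member ranked above 81% of all windows and above 74.4% of those with a long first exon. In uCG reads the members were closer to the rest, with a median of 2.42 and a range of 0.48 to 3.90, against 2.16 in all windows and 1.95 with a long first exon. At least 1 read in both 500-ng libraries was found at 38.3% of the CGs in the windows and at 22.6% of all CGs. A read in all 3 uCG libraries was found at 35.5% and 14.1%, respectively.

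**Figure D1:**
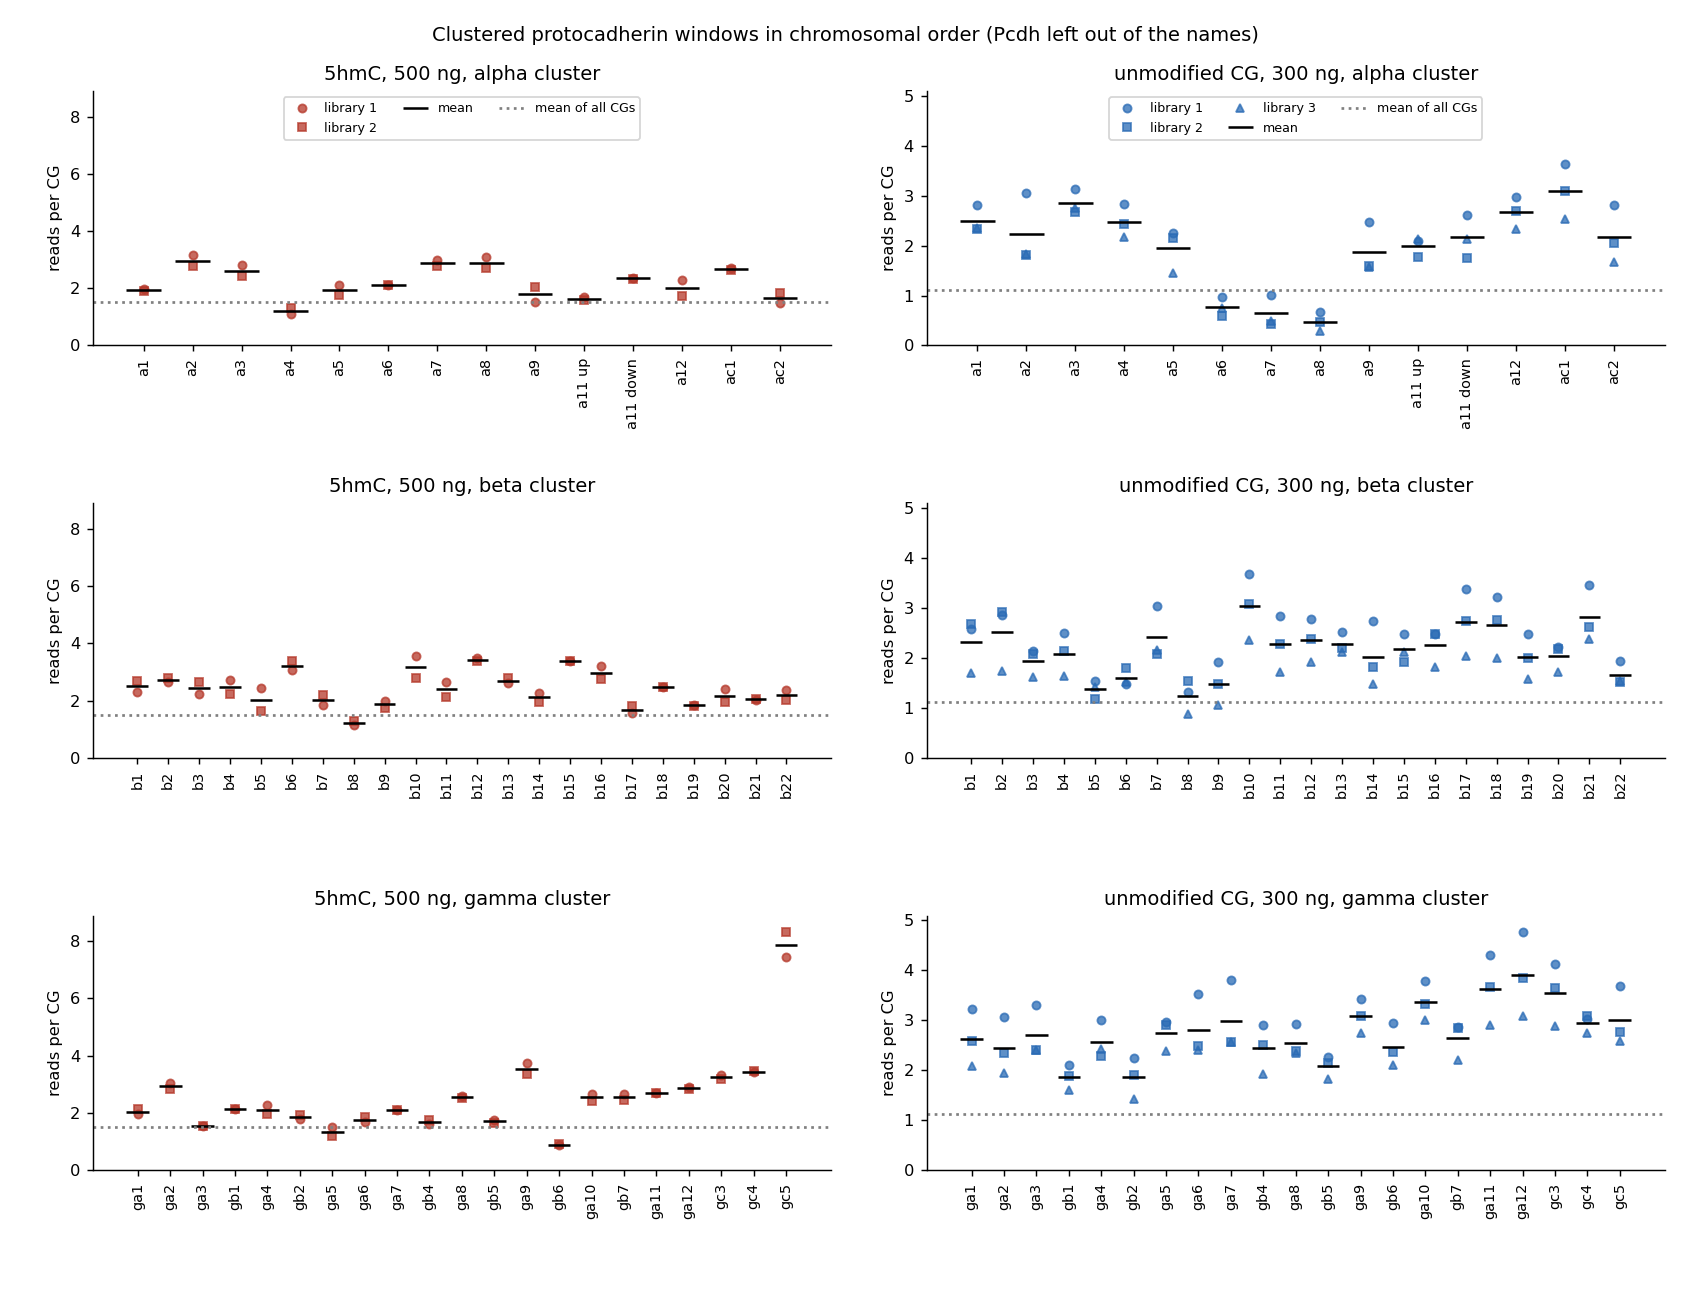
Reads per CG in the window of each clustered protocadherin gene in chromosomal order, for 5hmC at 500 ng (left, 2 libraries) and unmodified CG (right, 3 libraries). Points are libraries, black bars are means and the dotted line is the mean over all CGs. Pcdhgc5 stands above all others in 5hmC with 7.44 and 8.32, and Pcdha6, Pcdha7 and Pcdha8 lie below the dotted line in unmodified CG.

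In the alpha cluster, 5hmC at 500 ng had a median of 2.06 reads per CG and ranged from 1.22 to 2.97. The highest were Pcdha2 with 3.17 and 2.77 in the 500-ng libraries, Pcdha8 with 3.10 and 2.70, and Pcdha7 with 3.01 and 2.77. The lowest were Pcdha4 with 1.11 and 1.33, the upstream copy of Pcdha11 with 1.70 and 1.58, and Pcdhac2, a C-type exon, with 1.49 and 1.85. The 3 highest did not overlap the 3 lowest, and the order among the 3 highest was within the difference between replicates. Both sets were picked by the mean of these same libraries, so their separation is not a test.

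The uCG levels of the alpha cluster showed a run of 3 neighbours far below the rest. Pcdha6 (chr18:36966631-36970137) had 0.98, 0.59 and 0.75 uCG reads per CG in the 3 libraries. Pcdha7 (chr18:36972802-36976278) had 1.02, 0.42 and 0.49, and Pcdha8 (chr18:36991371-36994848) had 0.66, 0.47 and 0.29. In each library these 3 were the lowest of the cluster, whereas Pcdhac1, the highest, had 3.64, 3.09 and 2.54, Pcdha3 had 3.14, 2.66 and 2.75, and Pcdha12 had 2.98, 2.69 and 2.34. Pcdha8 was below 89% of all windows in uCG and above 85.5% in 5hmC. Alpha exons are similar in sequence, and only 48.0% to 55% of the CGs in these 3 windows had stretches of 80 bases on both strands that aligned back to their own place on the chromosome. Over those CGs alone the uCG levels were 0.84, 0.70 and 0.61 for Pcdha6, Pcdha7 and Pcdha8, and the 5hmC levels at 500 ng were 2.74, 4.0 and 4.06. The alignment used the reference genome and not the DNA of E14TG2a, and whether that DNA differs there, or what part mapping had in the low uCG reads, was not tested.

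In the beta cluster, where a single exon holds the whole gene, the median at 500 ng was 2.41 with a range of 1.21 to 3.43. Pcdhb12 had 3.49 and 3.37 5hmC reads per CG, Pcdhb15 had 3.37 and 3.40, and Pcdhb6 had 3.05 and 3.39. At the other end Pcdhb8 had 1.13 and 1.28, Pcdhb17 had 1.56 and 1.81, and Pcdhb19 had 1.86 and 1.81. The replicates of the top 3 and of the bottom 3 were separate, which is not a test, since both sets were picked by the mean of these libraries. In uCG, Pcdhb10 was highest with 3.69, 3.09 and 2.36, followed by Pcdhb21 with 3.45, 2.62 and 2.37 and Pcdhb17 with 3.38, 2.74 and 2.04. Pcdhb8 was lowest with 1.31, 1.53 and 0.88, next to Pcdhb5 with 1.53, 1.17 and 1.42 and Pcdhb9 with 1.92, 1.47 and 1.05. Pcdhb8 thus had the lowest mean of the cluster in both readouts, while Pcdhb17 was low in 5hmC and among the highest in uCG.

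In the gamma cluster the median was 2.14, with the widest range, 0.89 to 7.88. Pcdhgc5 (chr18:37818513-37822134), the last C-type exon, had 7.44 and 8.32 5hmC reads per CG from 500 ng of DNA, 5.01 and 5.37 from 50 ng and 1.51 and 3.06 from 5 ng. It was above 97.8% of all windows, and 89.7% of its 78 CGs had a read in both 500-ng libraries. The next highest, Pcdhga9 with 3.74 and 3.34 and Pcdhgc4 with 3.43 and 3.46, had less than the lower Pcdhgc5 library. Pcdhgb6 was lowest of all 57 with 0.86 and 0.91, followed in the cluster by Pcdhga5 with 1.49 and 1.20 and Pcdhga3 with 1.52 and 1.54. In the window of Pcdhgb6 44.6% of the CGs aligned back on both strands, the lowest share of all members, and over those the mean was 1.30.

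In uCG reads the gamma cluster was highest at Pcdhga12 with 4.76, 3.85 and 3.09, Pcdhga11 with 4.31, 3.66 and 2.90 and Pcdhgc3, the first C-type exon of the cluster, with 4.13, 3.64 and 2.88. The lowest were Pcdhgb2 with 2.24, 1.91 and 1.41, Pcdhgb1 with 2.10, 1.89 and 1.59 and Pcdhgb5 with 2.27, 2.14 and 1.83. Even these were above the mean over all CGs in each library. Over the 57 windows, 5hmC and uCG levels were weakly related (Spearman rho = 0.23, a description over exons of the same libraries), with rho = -0.10 in alpha, 0.30 in beta and 0.52 in gamma.

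Levels in the clusters differed by small factors. Summed over windows in each of the 6 labeled 5hmC libraries, beta had more reads per CG than alpha by 0.24 ± 0.10 on the log2 scale (SD, n = 6 libraries), gamma more than alpha by 0.38 ± 0.17 and gamma more than beta by 0.14 ± 0.10. The sign was the same in 6 of 6 libraries in each case, which gives the smallest p of the two-sided exact sign-flip permutation test, 0.031, and an adjusted p of 0.036 over the 7 comparisons made. The difference grew as the input fell, since gamma over alpha was 0.17 and 0.21 with 500 ng, 0.32 and 0.42 with 50 ng, and 0.56 and 0.58 with 5 ng. In uCG, gamma exceeded alpha by 0.46 to 0.60 and beta by 0.36 to 0.45 in the 3 libraries, whereas beta exceeded alpha by 0.01 to 0.24. With 3 libraries no exact test can give p below 0.25. Over CGs that align back on both strands, beta was no longer above alpha (-0.09 in 5hmC and -0.18 in uCG), so that the order of these clusters changed with the CGs used. With exons ending at the end of the coding sequence, gamma was no longer above beta in 5hmC (0.0039, adjusted p = 0.97 in the exact sign-flip test).

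The clearest feature was the contrast between exon and upstream sequence. In 5hmC, the 5553 CGs of first exons had 2.63 and 2.53 reads per CG at 500 ng and the 629 CGs upstream had 0.51 and 0.60. The log2 ratio was 2.38 and 2.08 in the 500-ng libraries, 1.94 and 1.93 in those of 50 ng and 1.43 and 1.22 in those of 5 ng, with a mean of 1.83 ± 0.43 (n = 6, exact sign-flip p = 0.031, adjusted p = 0.036). Without the most covered CG of each region the mean was 2.71. All 6 libraries thus had more 5hmC in the exons, and the ratio was smaller at lower input. In uCG the ratio was 0.12, -0.05 and 0.06, that is, upstream sequence (2.57, 2.37 and 1.91 reads per CG) was as well covered as the exons (2.80, 2.29 and 1.99) to within the spread of the libraries.

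The exon was above its own upstream kb in 56 of 57 members in 5hmC and in 33 of 57 in uCG. Among the 1070 other genes with a first exon of at least 1 kb and at least 10 reads in it, the exon was higher in 58.3% in 5hmC. However, 37 of 57 members had under 10 5hmC reads upstream. With at least 10 reads in both parts, the exon was higher in 19 of 20 members. Among the 827 genes with such reads and a first exon of at least 1 kb, members included, it was higher in 48.6%. In uCG it was higher in 49.3% of 1144 genes chosen in the same way. The exception in 5hmC among the 57 members was Pcdhb19, whose exon had 1.84 and 1.74 and whose 5 upstream CGs had 2.40 and 3.40. Upstream levels were under 0.2 in most of the alpha cluster (median 0.10), including Pcdha2, Pcdha6 and Pcdha12 with 0 reads in both 500-ng libraries, where a count of 0 allows up to 3 reads in a library. Pcdhgc5 was again unlike the others, with 7.70 and 7.90 upstream and 7.40 and 8.38 in the exon. The C-type windows Pcdhac1 (0.86 and 1.18 upstream) and Pcdhac2 (0.92 and 2.42) were the highest of the alpha cluster upstream. Between 3 and 39 CGs lay upstream of a member, so single values there are imprecise. For Pcdhb18, Pcdhb20 and Pcdhb22 the upstream kb lay largely or wholly in the exon of the preceding member and was still counted as upstream here.

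**Figure D2:**
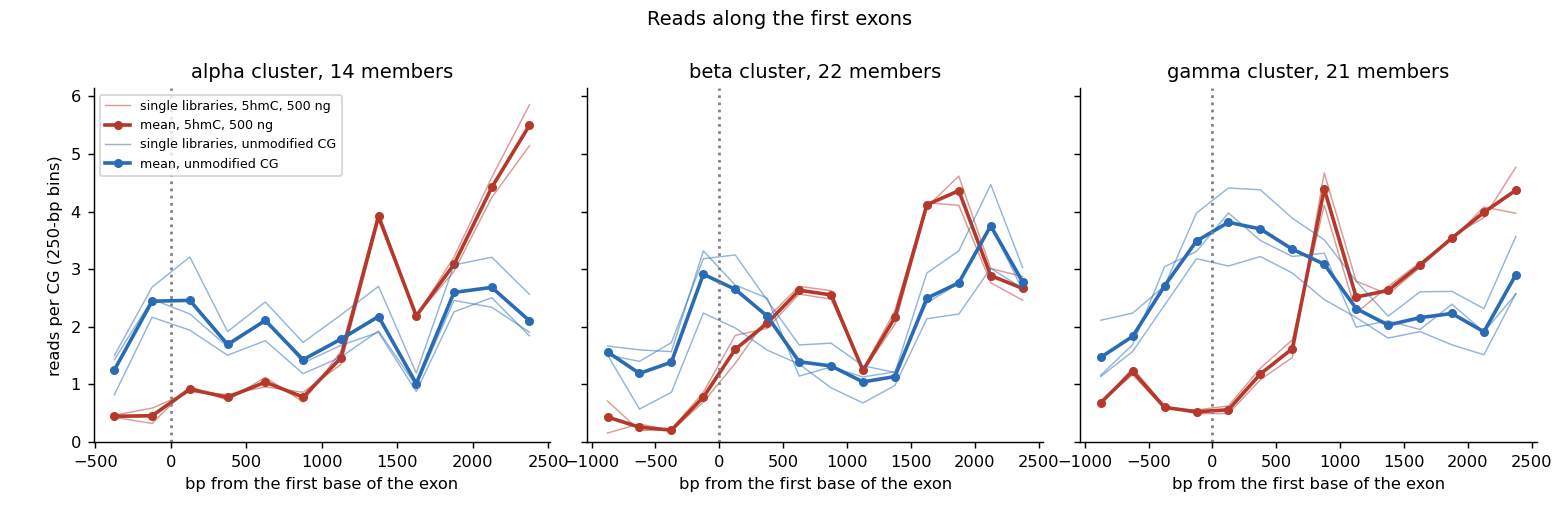
Reads per CG in bins of 250 bp by distance from the first base of the exon, for the alpha, beta and gamma cluster (bins with at least 20 CGs). Thick lines are means and thin lines libraries, red for 5hmC at 500 ng and blue for unmodified CG. In alpha, 5hmC stays near 1 or below over the first kb and reaches 5.50 in the last bin, and in gamma uCG falls from 3.81 in the first bin of the exon to 1.91 between 2000 and 2250 bp and is 2.91 in the last bin, where 5hmC has risen from 0.56 to 4.37.

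Within the exon, 5hmC increased towards the 3' end. In alpha exons it was 0.92 reads per CG in the first 250 bp, 0.78 between 750 and 1000 bp, 3.92 between 1250 and 1500 bp and 5.50 between 2250 and 2500 bp. In gamma exons it was 0.56 in the first 250 bp, 4.39 between 750 and 1000 bp, 2.52 between 1000 and 1250 bp and 4.37 in the last bin. In beta exons it rose from 1.61 to 4.36 between 1750 and 2000 bp and was 2.67 in the last bin. The uCG profile differed between clusters, since it fell along gamma exons from 3.81 to 1.91 between 2000 and 2250 bp before a level of 2.91 in the last bin, had a dip in beta exons (1.04 between 1000 and 1250 bp, 3.75 between 2000 and 2250 bp), and had no steady trend in alpha exons.

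Each exon was split midway between its first base and the end of its coding sequence into a 5' and a 3' part. The 3' part had more 5hmC reads per CG than the 5' part in 13 of 14 alpha, 19 of 22 beta and 17 of 21 gamma members at 500 ng. No share over other genes stands beside these counts or those of uCG below. Whether they are particular to the members was therefore not tested. Over whole clusters the log2 ratio of the 3' to the 5' part was 1.25 to 1.76 in alpha, 0.14 to 0.87 in beta and 0.47 to 1.14 in gamma across the 6 libraries, so it was positive in every one. Pcdha5 had 0.10 and 0.12 in its 5' part and 3.65 and 3.03 in its 3' part. Pcdhgc3 had 1.17 and 1.5 against 8.64 and 7.59. Pcdhb1 showed the reverse, with 3.20 and 3.30 in the 5' part and 0.58 and 1.47 in the 3' part. These members were picked after their values were seen.

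For uCG the parts of the exon went in different directions in the clusters. The 3' part was higher in 20 of 22 beta members, in 8 of 14 alpha members and in 4 of 21 gamma members. The log2 ratio was 0.66 to 0.85 in beta, -0.04 to 0.23 in alpha and -0.56 to -0.50 in gamma over the 3 libraries, ranges which did not overlap. Pcdhb10 rose from 0.80, 1.65 and 0.60 to 5.18, 3.96 and 3.33, while Pcdhga7 fell from 5.90, 3.95 and 3.72 to 1.41, 0.83 and 0.72. Among CGs that align back, the levels at 500 ng were 1.41 and 4.10 in the 5' and 3' parts of alpha exons, 2.02 and 3.70 in beta and 2.19 and 4.11 in gamma, and the uCG levels of gamma were 3.45 and 2.57.

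**Figure D3:**
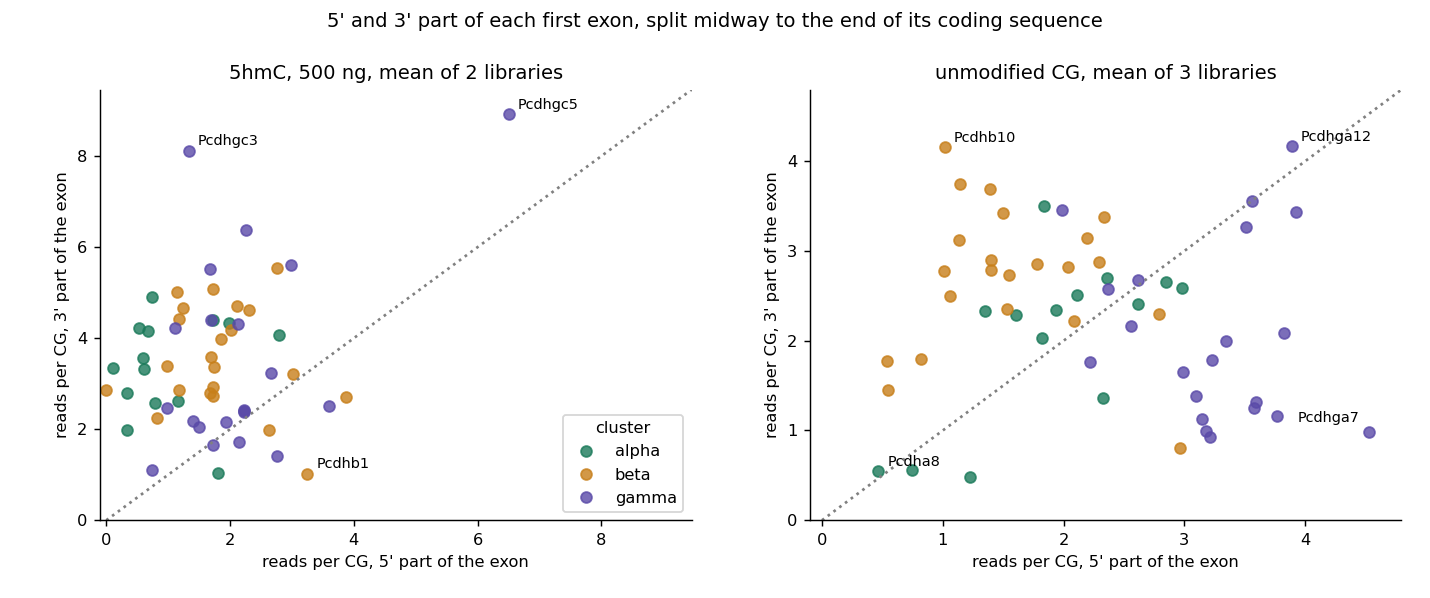
Reads per CG in the 5' part (x axis) and 3' part (y axis) of each first exon, for 5hmC at 500 ng (left) and unmodified CG (right). Points are members coloured by cluster, means of 2 and 3 libraries, and the dotted line marks equal levels. Most members lie above the line in 5hmC, and in unmodified CG 20 of 22 beta members lie above it and most gamma members below.

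The order of exons along the chromosome was related to the levels in the gamma cluster. The rank correlation of order and window level was 0.54 in 5hmC at 500 ng and 0.61 in uCG over the 21 gamma exons, against -0.13 and -0.02 in alpha (14 exons) and -0.18 and 0.16 in beta (22 exons). Without the 3 C-type exons the gamma values were 0.30 and 0.50. These are descriptions over exons that share libraries. The relation lay in the 3' parts of gamma exons, where rho was 0.66 in 5hmC and 0.80 in uCG, while in the 5' parts it was -0.08 and -0.06. All values for parts of exons include the C-type exons, and the relation in the parts without them was not tested. In single libraries the 3' parts gave 0.51 to 0.77 in the 6 of 5hmC and 0.79 to 0.80 in the 3 of uCG, and over CGs that align back 0.62 and 0.73.

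In the 9 exons from Pcdhga1 to Pcdhga7 the 3' part had 0.93 to 1.78 uCG reads per CG (median 1.16), and in the 12 from Pcdhgb4 to Pcdhgc5 it had 1.65 to 4.17 (median 2.63). The 5' parts had medians of 3.23 and 3.16. In 5hmC the 3' parts had 1.41 to 2.50 (median 2.17) in the 9 exons and 1.10 to 8.92 (median 4.35) in the 12, which include the C-type exons. The lowest of the 12 was thus below the lowest of the 9. This division was made after the values were seen and was not tested. Close to the medians of the first set was Pcdhgb1, whose 3' part had 2.42 and 2.37 5hmC reads per CG and 1.31, 1.12 and 0.94 uCG reads per CG. In Pcdhgb7, close to those of the second set, these were 4.37 and 4.07 and 3.17, 2.74 and 2.13.

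The 5 C-type windows had more reads than the other windows. In the 6 libraries of 5hmC the log2 ratio was 0.28 to 0.66, with a mean of 0.52 ± 0.13 (exact sign-flip p = 0.031, adjusted p = 0.036), and in uCG it was 0.37, 0.42 and 0.37. Besides Pcdhgc5, Pcdhgc4 had 3.43 and 3.46 5hmC reads per CG at 500 ng, Pcdhgc3 had 3.33 and 3.19, Pcdhac1 had 2.70 and 2.66, and Pcdhac2 had 1.49 and 1.85. The C-type exons were thus among both the highest and the lowest members. Without Pcdhgc5 the ratio fell to 0.23 in 5hmC (adjusted p = 0.036 in the exact sign-flip test) and was 0.38 in uCG, so that 1 exon accounted for much of the difference in 5hmC.

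**Figure D4:**
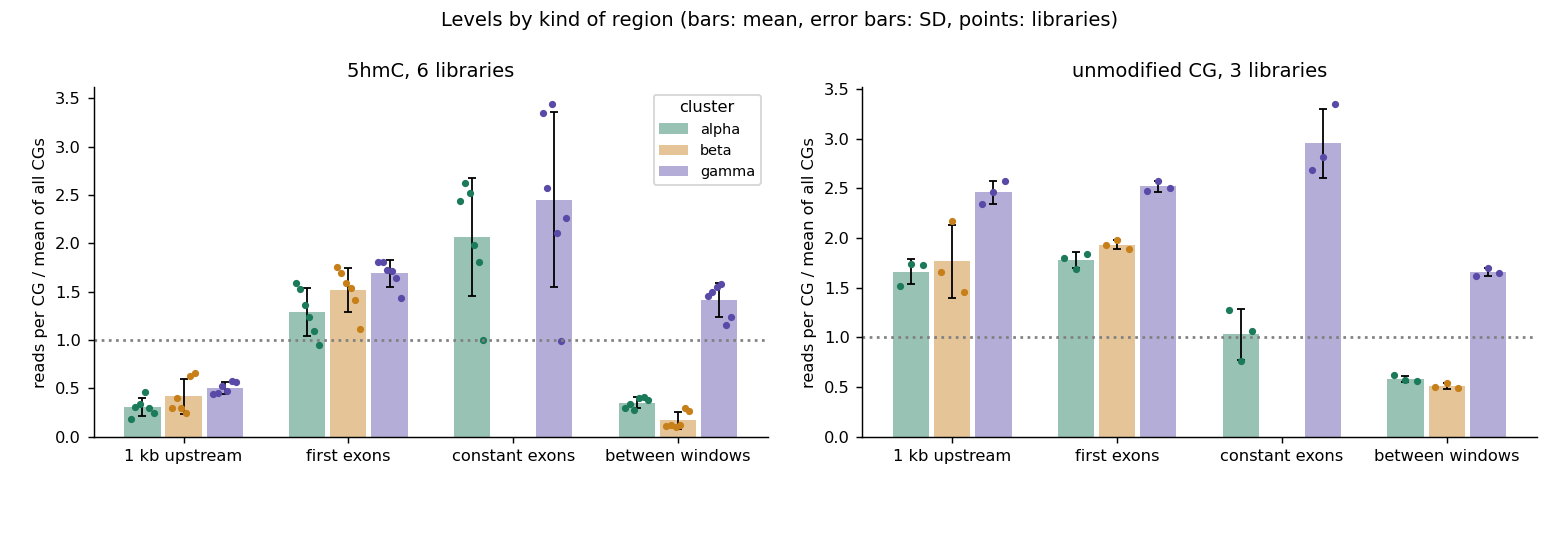
Reads per CG divided by the mean over all CGs of the library, by kind of region and cluster, for 5hmC (left, 6 libraries) and unmodified CG (right, 3 libraries). Bars are means, error bars SD and points libraries, and the dotted line marks the mean over all CGs. Beta genes have no constant exons. Upstream sequence is below the line in 5hmC and above it in unmodified CG, and sequence between windows is above the line only in gamma, in both readouts.

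The constant exons shared by all members of a cluster hold few CGs, 39 in alpha (chr18:37156155-37156213, chr18:37159265-37159353 and chr18:37184946-37187657) and 45 in gamma (chr18:37825021-37825079, chr18:37833265-37833353 and chr18:37839903-37841873). At 500 ng they had 3.72 and 3.92 5hmC reads per CG in alpha and 5.09 and 3.84 in gamma. In alpha, the variable exons had less than the constant exons by 0.63 ± 0.28 on the log2 scale in 5hmC (lower in 6 of 6 libraries, exact sign-flip p = 0.031, adjusted p = 0.036) and more by 0.50, 1.15 and 0.80 in uCG. In gamma, the difference in 5hmC was -0.44 ± 0.63 (lower in 5 of 6 libraries, exact sign-flip p = 0.16, adjusted p = 0.16), and in uCG -0.12, -0.13 and -0.42. The alpha difference rests on the last constant exon, which holds 35 of the 39 CGs. Taken as a mean over the 3 exons it was 0.11 and did not pass the exact sign-flip test (adjusted p = 0.95). It did not pass by the share of CGs with a read either (-0.25, adjusted p = 0.094 in the same exact test), nor over CGs that align back (-0.27, adjusted p = 0.18 in the same exact test).

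The sequence outside windows and constant exons had 0.46 and 0.51 5hmC reads per CG at 500 ng in alpha, 0.17 and 0.18 in beta and 2.22 and 2.24 in gamma. In gamma it was 1.70 and 1.69 between the windows upstream of Pcdhgc3, 0.40 and 0.80 at the 25 CGs from Pcdhgc3 to the exon of Pcdhgc5, 3.40 and 3.55 between Pcdhgc5 and the first constant exon and 4.72 and 4.78 between the constant exons. In alpha it was 0.26 and 0.26 up to Pcdhac2 and 1.30 and 1.52 after it. Gamma was thus the highest outside the exons in these libraries, and in both clusters the levels were higher after the last C-type exon than before it. In uCG it was so too, with levels of 0.82, 0.61 and 0.53 in alpha, 0.66, 0.59 and 0.46 in beta and 2.15, 1.84 and 1.56 in gamma. The gamma sequence includes the first exon of Pcdhgb8, which is annotated as a pseudogene and is not a member.

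The most covered single CGs of 5hmC lay inside the exons, which hold 5553 of the 6182 CGs of the windows. They were chr18:37808407 in Pcdhgc3, 1997 bp after the first base of the exon, with 49 and 37 reads at 500 ng, chr18:37727881 in Pcdhga8, 2175 bp after it, with 41 and 40, and chr18:37144872 in Pcdhac2, 1369 bp after it, with 26 and 50. All 10 CGs with the highest mean lay at least 513 bp after the first base and aligned back to their place. In uCG, the highest was chr18:37768004 in Pcdhga12 with 30, 6 and 18 reads, a spread that shows how far single CGs vary between libraries.

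In a test over all windows with at least 10 reads on average, 5hmC at 500 ng was compared with uCG with edgeR (quasi-likelihood test, TMM scaling), which centers the comparison on the bulk of windows. Of the 57 members, 56 were higher in 5hmC and 0 lower at an adjusted p of 0.05, whereas 38.6% of all 17408 windows were higher and 47.1% lower. The median log2 ratio was 1.66 in the members and -0.32 in all windows. Among 1161 other genes with a first exon of at least 1 kb, 57.6% were higher and the median was 0.79. The largest ratios were those of Pcdha8 (4.28 ± 0.14, SE, adjusted p = 1.65e-27), Pcdha7 (3.85 ± 0.15, adjusted p = 2.72e-25), Pcdha6 (3.11 ± 0.15, adjusted p = 3.38e-22) and Pcdhgc5 (3.06 ± 0.10, adjusted p = 2.47e-28). Pcdhgb6 had 0.19 ± 0.14 (adjusted p = 0.20) and did not pass.

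The direction depended on the scaling. With the whole library as the denominator, 5 members were higher and 38 lower, beside 12.7% and 73.3% of all windows, with medians of -0.44 and -2.41. The median ratio of 5hmC to uCG reads was thus higher in the members than in all windows under both scalings. With the whole library as the denominator, however, a smaller share of members than of all windows was called higher. Relative to all reads in the genome, most members had less 5hmC than uCG. By part, 57 of 57 members were higher and 0 lower in the exon alone, beside 24.5% and 67.3% of all first exons tested, and 3 were higher and 20 lower of 42 tested in the 1 kb upstream, beside 36.6% and 43.8%.

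At lower input no member passed the test against 500 ng by edgeR. At 50 ng, 0 of 57 passed in either direction, beside 0% of 12531 windows, 3 members (all lower) and 775 windows had an unadjusted p under 0.05, and DESeq2 also called 0. The members' median log2 change was -0.07, and that of all windows 0.01. The 3 members were Pcdha9 (-0.83 ± 0.23, adjusted p = 0.79), Pcdha12 (-0.62 ± 0.19, adjusted p = 0.79) and Pcdhb6 (-0.54 ± 0.19, adjusted p = 0.79), which also had the largest changes of the members, and the largest positive change was that of Pcdhga5 (0.49 ± 0.25, adjusted p = 0.79). At 5 ng, which is compared with the same 500-ng libraries, 0 of 57 passed beside 0% of 11770 windows, with 4 members (1 higher and 3 lower) and 1098 windows under an unadjusted p of 0.05. The median change was -0.34 in members, with -0.50 in alpha, -0.28 in beta and -0.18 in gamma, and -0.07 in all windows.

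DESeq2 called 2 members at 5 ng, Pcdha12 as lower (-1.86 ± 0.45) and Pcdhgb2 as higher (1.14 ± 0.25), beside 1.39% of windows higher and 4.43% lower. In reads per CG, Pcdha12 had 2.30 and 1.72 in the libraries of 500 ng, 0.90 and 0.87 in those of 50 ng and 0.18 and 0.27 in those of 5 ng. Pcdhgb2 had 1.80 and 1.92, 1.46 and 0.97, and 1.78 and 1.59, and so kept its level at 5 ng although the libraries were less deep. The order of the members was well kept between the 500-ng replicates (rho = 0.88 over the 57 windows), less between those of 50 ng (0.59) and weakly between those of 5 ng (0.24), so levels of single members at 5 ng were imprecise. Without replicate 1 of the 50-ng libraries the test found 5 members lower and 0 higher, beside 4.06% and 3.33% of all windows, and without replicate 2 it found 6 and 2, beside 5.31% and 4.53%. Without replicate 1 of the 5-ng libraries it found 27 members lower and 6 higher, beside 40.4% and 23.3% of all windows, and without replicate 2 it found 24 and 10, beside 39.3% and 22.4%. Windows as a whole were thus called in large numbers at 5 ng once a library was left out. The lone library is then assumed to vary like those of 500 ng, which were closer to each other.

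**Figure D5:**
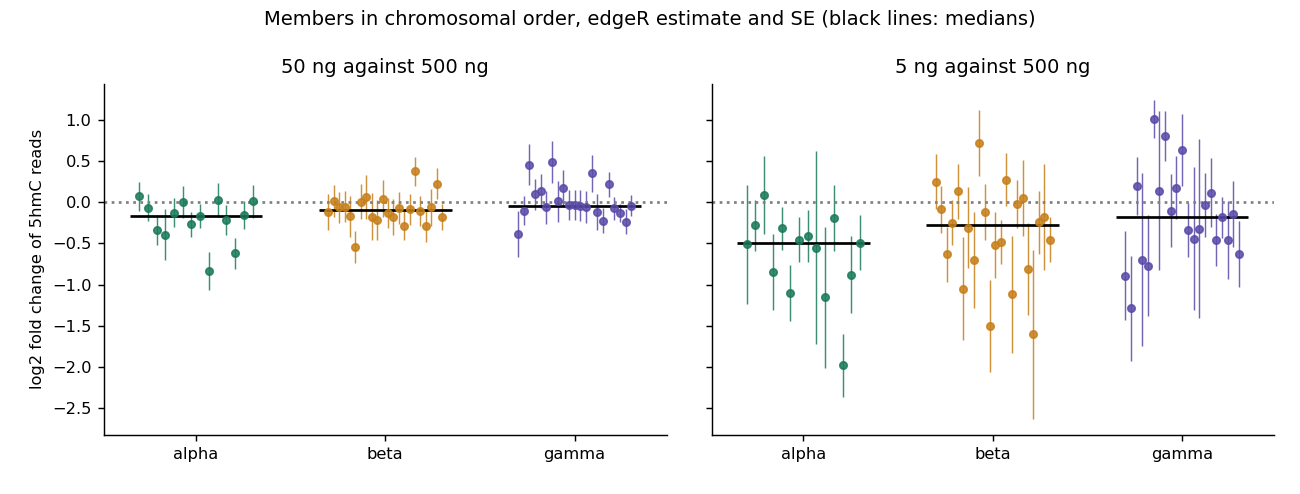
Log2 fold change of 5hmC reads of each member at 50 ng (left) and 5 ng (right) against 500 ng, in chromosomal order within the cluster. Points are estimates of edgeR, error bars their SE and black lines cluster medians. The changes spread far more at 5 ng, where they reach -1.98 for Pcdha12 and 1.01 for Pcdhgb2, and none passed the test.

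The 12 non-clustered protocadherins, single genes outside the clusters, had 5hmC levels from 0.28 to 6.97 at 500 ng (median 1.18) and uCG levels from 0.24 to 2.95 (median 1.75). Pcdh12 (6.97) and Pcdh1 (5.78) were highest in 5hmC and Pcdh10 (0.28) and Pcdh9 (0.45) lowest. This family thus reached below the lowest clustered gene (0.89) but not up to Pcdhgc5 (7.88). The 17 genes known to act on clustered protocadherin promoters had little 5hmC in their windows, with a median of 0.076 and a range of 0.0083 to 1.10. Dnmt3b (1.10), a de novo DNA methyltransferase, and Smc3 (0.63), a subunit of cohesin, were highest and Nipbl (0.0083), the loader of cohesin, and Smc1a (0.011), another subunit, lowest. Their uCG levels ranged from 0.80 in Stag2 to 4.73 in Dnmt1. The 6 pluripotency genes had a median of 0.58 in 5hmC and 3.08 in uCG.

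The windows differed in CG density, with medians of 3.73 CGs per 100 bp in alpha, 1.93 in beta and 3.22 in gamma. Within clusters the density was weakly related to the 5hmC level (rho = -0.17, 0.18 and -0.05) and to the uCG level (rho = -0.15, 0.20 and -0.07). The share of CGs that align back on both strands had medians of 64.9% in alpha and 96.5% in gamma and ranged from 58.0% upwards in beta, so fewer CGs of the alpha than of the gamma cluster lay in sequence of their own. Beyond the values over such CGs given above, the part of this in the results was not tested.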

How the data were processed

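Reads of 5hmC (hmTOP-seq, 6 labeled and 6 control libraries) and of unmodified CG (uTOP-seq, 3 libraries) were used. By their methods, the authors discarded raw reads under 80 nt and alignments to mm10 with a mapping quality under 30, dropped duplicates by start and length and deposited read counts per CG and library, without normalization or pooling. The aligner is not given in the sources used here. All 15 library columns were used. Members, gene lists and regions were chosen with earlier results of these data known.

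Positions were counted from 0 in the files and were raised by 1, after which all 721541 CGs of chromosome 18 lay on a CG of GRCm38. Counts were summed over the first exon plus 1 kb upstream of each gene in GENCODE M21. In sums over classes of regions, a CG in overlapping windows was counted once per class, and a CG in any member's exon was counted as exon. For single members and in the edgeR fits each region was taken whole. There the upstream kb of Pcdhb18, Pcdhb20 and Pcdhb22 lay largely or wholly in the exon of the preceding member. Windows with at least 10 reads on average were compared by edgeR 4.0.16 (glmQLFit, glmQLFTest, TMM, R 4.3.3), with p-values adjusted over all windows by the Benjamini-Hochberg method and a threshold of 0.05. The SE of a fold change is its size divided by the square root of F. DESeq2 1.42.0 was an alternative. Ratios between classes of regions were log2 ratios of reads per CG in each library, tested by a two-sided exact sign-flip permutation over 6 libraries and adjusted over 7 comparisons. To find CGs in repeated sequence, stretches of 80 bases from each CG were aligned to chromosome 18 by bwa 0.7.19, and 8900 of 11698 CGs of the region aligned back on both strands with a mapping quality of at least 30. Longer reads and other chromosomes were not considered there. Python 3.11.15, numpy 2.4.6, pandas 2.3.3 and scipy 1.17.1 were used, and the steps were tested on simulated data.

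Named were the 3 highest and 3 lowest windows of each cluster in either readout, the C-type genes, members called at lower input, and the 2 highest and lowest of other lists. Members named for parts of exons, upstream levels, single CGs or largest fold changes were chosen after their values were seen. Duplicates were removed without molecular identifiers, so the true error of a count exceeds its counting error.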

Additional observations from a re-analysis of the deposited data

Results flagged for a closer look

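Pcdhgb6 had reads in control libraries, where BGT was left out. Its window held 7 control reads, 3 and 4 in the 500-ng controls and 0 in the others. They lay at 2 of its 148 CGs, and 1 CG had 4 of them. All members together had 11 control reads, of which Pcdhga1 had 2 and Pcdhac1 and the upstream copy of Pcdha11 had 1 each. The labeled 500-ng libraries had 0.86 and 0.91 reads per CG in this window, and control reads entered none of the levels. Groups of 2 or 3 libraries were too small to look for single outlying libraries.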

How the results depend on the processing

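The replicate number was taken as a block in an alternative fit, although same-numbered libraries did not deviate together (r = 0.01 for 50 with 500 ng and -0.01 for 5 with 500 ng). With the block, 56 members were higher and 0 lower in 5hmC than in uCG, and 0 passed in either direction at 50 and 5 ng, so no count changed. Counts for 5hmC against uCG moved to 5 higher and 38 lower without TMM and to 3 and 20 in the 1 kb upstream, where 42 members were tested. For 5 ng, DESeq2 gave 1 higher and 1 lower. Leaving out each library gave 0 to 2 members higher and 0 to 6 lower at 50 ng, 0 to 10 higher and 0 to 27 lower at 5 ng (up to 4.53% of all windows higher and 5.31% lower at 50 ng, and 23.3% and 40.4% at 5 ng), and 56 higher and 0 lower in 5hmC than in uCG.

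Limited to CGs that align back, an alternative chosen after seeing the data, beta over alpha was -0.086 in 5hmC and -0.18 in uCG. In 5hmC the other ratios there were 0.20 for gamma over alpha, 0.29 for gamma over beta, 1.98 for exon over upstream and 0.39 for C-type windows, each with an adjusted p of 0.055 because fewer of the 7 comparisons reached the smallest p, and -0.27 for alpha variable over constant exons (adjusted p = 0.18 in the exact test), so all these calls were lost. In uCG they were 0.37, 0.55, 0.17 and 0.25 for the first 4. With exons cut at the end of the coding sequence, also chosen afterwards, gamma over beta was 0.0039 in 5hmC and lost its call (adjusted p = 0.97 in the exact test), and in uCG beta over alpha was 0.24, gamma over beta 0.27 and C-type windows 0.34. By the share of CGs with a read, alpha variable over constant exons was -0.25 in 5hmC and lost its call (adjusted p = 0.094 in the exact test), the gamma ratio was -0.47 and passed (adjusted p = 0.036), and in uCG gamma over alpha was 0.33, gamma over beta 0.26, alpha variable over constant exons 0.38 and C-type windows 0.26. As means over regions, alpha variable over constant exons was 0.11 in 5hmC and 1.38 in uCG, and the gamma ratio 0.024 in 5hmC (adjusted p = 0.97 in the exact test) and 0.24 in uCG. Without the most covered CG of each region, exon over upstream was 2.71 in 5hmC and 0.23 in uCG. The cause was not tested where none is given.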

Other observations

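Several limits apply to the values above. Coverage counts labeled and primed molecules, so it ranks regions but gives no percentage of 5hmC or of unmodified CG. Reads of 5hmC and uCG have their own depth and bias, and a ratio between them is relative to the scaling. All libraries share DNA of 1 cell line, and alleles cannot be told apart. Exons of a cluster resemble each other in sequence, and levels over CGs with similar copies elsewhere on the chromosome are less certain.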
